A study of Mus musculus with 24 samples.

Results

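Mme, Ifi203, Zfp804a, Mogat2 and Pla2g7 are 5 of 19938 genes measured in P19 mouse embryonal carcinoma cells, which differentiate when given retinoic acid. They were chosen by their measured levels late in treatment, which lay far apart between all-trans retinoic acid (ATRA) and BMS753, and each was read from its only probe set. ATRA binds every subtype of the retinoic acid receptor (RAR), while the labels give BMS753 as an agonist of RARα, BMS641 of RARβ and BMS961 of RARγ. Monolayers on gelatine received ATRA or BMS753 at 1 µM, or BMS641 or BMS961 at 0.1 µM, and each agent has 1 Affymetrix Mouse Gene 1.0 ST array at 2, 6, 24, 48 and 72 h. The controls are 4 arrays of the ethanol vehicle (EtOH) that carry no time. All groups share the P19 line, and no genotype or transgene separates them. The labels do not say whether arrays came from separate cultures, so the spread between EtOH arrays may be technical. The p-values measure only spread between these arrays. In the fit of all arrays this spread also includes how unlike the agents' courses over time were within a phase. Values are log2 intensities as deposited. Early means 2 and 6 h, and late means 24, 48 and 72 h.

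Retinoic acid acts through RARs paired with RXRs, which sit on DNA and exchange corepressors for coactivators when ligand binds. In embryonal carcinoma cells this turns on genes of differentiation and, with a delay, shuts down the pluripotency network. The 5 genes belong to no shared pathway. Mme encodes neprilysin, a zinc metallopeptidase of the cell surface that cuts short peptides such as enkephalins and amyloid beta. Ifi203 encodes a member of the PYHIN (HIN-200) family, whose genes are known as interferon-inducible. Zfp804a encodes a zinc finger protein best known from the association of its human counterpart with schizophrenia. Mogat2 encodes an acyltransferase that makes diacylglycerol from monoacylglycerol and is known from fat absorption in the gut. Pla2g7 encodes a secreted phospholipase A2 that inactivates platelet-activating factor (PAF).

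Promoter windows of 4 of the genes are printed. Ifi203 and Zfp804a, whose courses were alike, have listed windows of unlike sequence. Mme and Pla2g7 lay outside the control range at 2 and 6 h of both 1 µM agents. They also did so in most early arrays of the 0.1 µM agents. Each window covers 250 bases before to 50 after a listed start site in GRCm38.p6, 5′ to 3′ on the gene's strand. Capitals mark matches, on either strand, to a motif that was searched. These were AGGTCA (a nuclear receptor half-site), TATAAA (the core promoter box), CCAAT (bound by NF-Y), GGGCGG (bound by Sp1), ATGCAAAT (the octamer bound by Oct4), the interferon-response core (GAAA repeated after a gap of 2 bases), and the retinoic acid response elements DR5, DR2 and DR1, which are direct repeats of a half-site and so can overlap AGGTCA.
Ifi203 at chr1:173942443-173942742, minus strand: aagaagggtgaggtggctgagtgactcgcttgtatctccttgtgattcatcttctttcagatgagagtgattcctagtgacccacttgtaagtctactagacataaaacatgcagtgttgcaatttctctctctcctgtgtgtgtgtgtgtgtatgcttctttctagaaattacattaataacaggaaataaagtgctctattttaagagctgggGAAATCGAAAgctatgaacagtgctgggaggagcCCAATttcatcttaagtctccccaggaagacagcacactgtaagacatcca
Zfp804a at chr2:82053408-82053707, plus strand: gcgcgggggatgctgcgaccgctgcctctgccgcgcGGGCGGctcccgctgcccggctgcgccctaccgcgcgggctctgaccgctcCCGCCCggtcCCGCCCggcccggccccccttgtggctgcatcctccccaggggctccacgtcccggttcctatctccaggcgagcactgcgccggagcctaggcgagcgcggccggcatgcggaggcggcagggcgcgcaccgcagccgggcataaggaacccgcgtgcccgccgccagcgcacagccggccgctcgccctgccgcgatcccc
Mme at chr3:63295622-63295921, plus strand: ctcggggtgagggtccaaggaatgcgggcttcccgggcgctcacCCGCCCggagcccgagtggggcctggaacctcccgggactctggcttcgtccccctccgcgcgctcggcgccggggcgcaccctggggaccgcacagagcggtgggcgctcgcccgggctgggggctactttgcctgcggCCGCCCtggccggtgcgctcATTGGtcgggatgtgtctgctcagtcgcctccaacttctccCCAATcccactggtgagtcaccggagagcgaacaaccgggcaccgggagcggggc
Pla2g7 at chr17:43568201-43568500, plus strand: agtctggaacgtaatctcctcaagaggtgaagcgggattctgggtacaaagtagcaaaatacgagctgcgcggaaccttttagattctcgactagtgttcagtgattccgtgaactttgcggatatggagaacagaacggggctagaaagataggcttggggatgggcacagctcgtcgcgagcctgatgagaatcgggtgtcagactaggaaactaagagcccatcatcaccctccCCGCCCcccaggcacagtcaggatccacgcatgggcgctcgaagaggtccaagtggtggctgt

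The printed Ifi203 window held 2 CpG and was 42.0% G or C, and the Zfp804a window held 45 CpG and was 79.3% G or C. The median over 32851 windows was 7 CpG and 52.7%. The printed Mme window held 32 CpG and the other listed windows of Mme held 4 and 29, and that of Pla2g7 held 17. The interferon-response core stood at −35 to −26 from the start site of the printed Ifi203 window and is held by 3.44% of all windows. A CCAAT match (37.4% of windows) stood at −1 to 4. The other listed window of Ifi203 held 1 CpG and neither match. GGGCGG, held by 35.7% of windows, had 3 matches in the Zfp804a window, 2 in the printed one of Mme and 1 in that of Pla2g7. The window set used here holds 7 windows for these 4 genes, 3 of Mme and 2 of Ifi203 among them. It is not a full list of starts. No window is placed at the outermost RefSeq start of Zfp804a (chr2:82050129), Pla2g7 (chr17:43567994) or Ifi203 (chr1:173942866), so windows of those starts were not searched. None of the 7 held DR5 (0.0974% of all windows), DR2 (0.268%), DR1 (0.222%), AGGTCA (16.3%), TATAAA (13.6%) or ATGCAAAT (1.74%). Mogat2 has no listed window.

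The late difference of ATRA from BMS753 chose the genes and is described without a test. Ranked by its mean over the late times, Ifi203 (2.82) stood 2nd, Mme (2.11) 7th and Zfp804a (2.10) 8th from the top of all genes, and Mogat2 (−2.42) stood 1st and Pla2g7 (−2.16) 5th from the bottom. The choice had no stated threshold, and genes that are no members lay among them, such as Hoxc6 (2.11) and Col12a1 (2.08) at the top and Pou5f1 (−2.21) and Tdgf1 (−2.12) at the bottom. The 3 late ATRA arrays lay above the 3 late BMS753 arrays for Mme and Zfp804a, as for 9.38% of all genes, and below them for Mogat2 and Pla2g7, as for 6.69%. For Ifi203 the arrays overlapped at 24 h.

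The EtOH arrays carried the embryonal carcinoma genes Pou5f1, which encodes Oct4, at 12.90 ± 0.06 (SD, n = 4) and Sox2 at 11.53 ± 0.02. Of 10 such markers, 9 fell and 0 rose with late ATRA against EtOH by limma at an adjusted p under 0.05 (36.9% of all genes called, 17.9% higher and 19% lower). With late BMS753, 4 fell and 0 rose (13.5% of all genes called, 6.52% higher and 6.94% lower). In bulk RNA, fewer cells that carry a transcript and less transcript per cell cannot be told apart. No agent has more than 1 array at a time, which limits the precision of each level.

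Mme was the gene of the 5 that lay farthest apart between the agents at 24 h. Its EtOH arrays read 8.40, 8.34, 8.32 and 8.22. With ATRA it read 8.65, 9.0, 10.31, 9.34 and 10.56 at 2, 6, 24, 48 and 72 h, so that all 5 arrays lay above the EtOH range, the last 4.73-fold over the EtOH mean. With BMS753 it read 8.66, 8.74, 8.29, 7.32 and 8.28 at the same times. The BMS753 arrays were above the EtOH range at 2 and 6 h, inside it at 24 and 72 h, and 2.00-fold below the EtOH mean at 48 h. ATRA minus BMS753 was −0.01 at 2 h and 0.26 at 6 h, then 2.01, 2.02 and 2.28 at 24, 48 and 72 h. The difference thus stayed near one size from 24 h on, while both courses were lower at 48 h than on either side.

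Ifi203 was flat until 24 h and then climbed with ATRA. Its EtOH arrays read 4.39, 4.16, 4.27 and 4.11. With ATRA it read 4.11, 4.25, 4.16, 6.94 and 10.21 from 2 to 72 h. The last array was 62.8-fold over the EtOH mean on the deposited scale. With BMS753 it read 4.46, 4.2, 4.05, 4.21 and 4.60, of which the arrays at 2 and 72 h lay above the EtOH range. ATRA minus BMS753 was 0.11 at 24 h, 2.73 at 48 h and 5.6 at 72 h. The tenth percentile of probe sets was 4.14 to 4.21 across arrays, so the control level of Ifi203 was among the dimmest, and whether it was above background is not known, since the table has no detection calls. If it was not, the fold is a lower bound.

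Zfp804a had the same shape. Its EtOH arrays read 4.96, 4.77, 5.00 and 4.93. With ATRA it read 4.88, 4.75, 5.07, 6.84 and 9.47, and the 72 h array was 23.5-fold over the EtOH mean on the deposited scale. Zfp804a was also among the dim genes that a filter on mean level removed, so the same limit holds for its fold. With BMS753 it read 5.01, 4.99, 5.06, 5.01 and 5.00, a narrower span than that of the EtOH arrays. Of these arrays 4 of 5 lay slightly above the EtOH range, as did the ATRA array at 24 h. At 24, 48 and 72 h the agents differed, as ATRA minus BMS753, by 0.01, 1.82 and 4.47. Mme aside, the genes that rose were thus still near the control level at 24 h and high in both later ATRA arrays. Those arrays lay above all 22 other arrays for Ifi203 and Zfp804a, as for 8.88% of all genes.

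Mogat2 fell late in the ATRA course, and its last BMS753 arrays lay on the other side of the controls. Its EtOH arrays read 9.89, 9.78, 9.79 and 9.76. With ATRA it read 9.87, 9.73, 9.34, 7.61 and 6.47, the last 10.1-fold below the EtOH mean. With BMS753 it read 9.78, 9.89, 9.90, 10.61 and 10.17. The arrays at 6, 24, 48 and 72 h were above every EtOH array, that at 6 h only just. At 24, 48 and 72 h the agents differed, as ATRA minus BMS753, by −0.56, −3.00 and −3.70. The 48 h difference sets a low ATRA array against the highest Mogat2 value of all 24 arrays.

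Pla2g7 fell sooner and was lowest at 48 h. Its EtOH arrays read 11.30, 11.25, 11.35 and 11.32. With ATRA it read 11.13, 10.63, 9.94, 8.0 and 8.78, all below the EtOH range and 9.88-fold below the EtOH mean at 48 h. With BMS753 it read 11.10, 10.84, 10.84, 11.46 and 10.90, below the EtOH range except at 48 h, where it was above it. ATRA minus BMS753 was −0.90, −3.46 and −2.12 at 24, 48 and 72 h. The ATRA arrays at 48 and 72 h lay below all others for Mogat2 and Pla2g7, as for 10.6% of all genes.

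**Figure D1:**
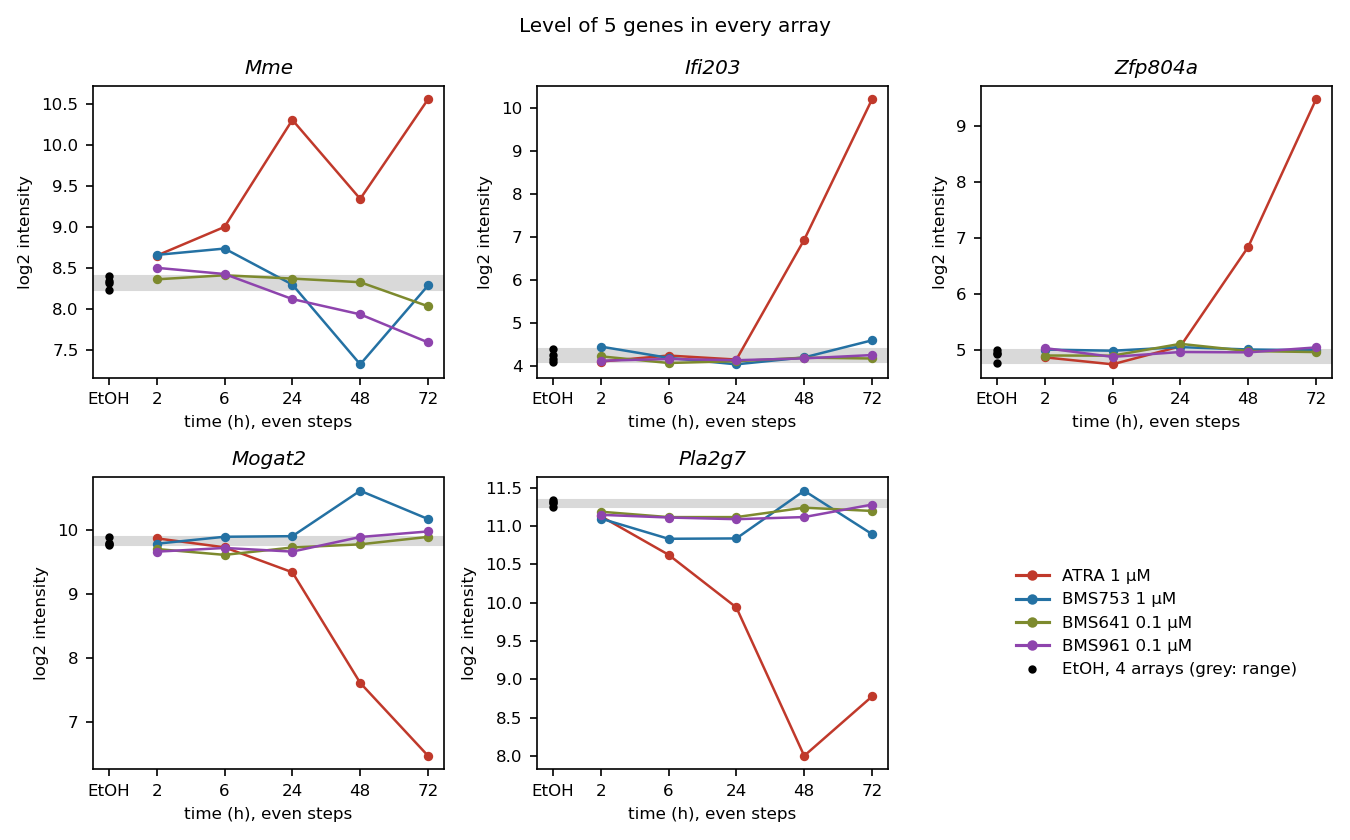
Log2 intensity of each of the 5 genes (vertical axis, a panel a gene) against time in h drawn in even steps, with a line for each agent, 1 array a point, and the 4 EtOH arrays. Mme rises with ATRA by 6 h (9.0), Ifi203 and Zfp804a climb at 48 and 72 h of ATRA, and Mogat2 and Pla2g7 fall with ATRA to 6.47 and 8.0.

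The early arrays took no part in the choice and were tested. In a limma fit of all 24 arrays, 0 of the 5 genes differed between ATRA and BMS753 early (0% of all genes called, 1923 genes and 0 of the 5 at an unadjusted p under 0.05). ATRA minus BMS753 was 0.13 for Mme (95% interval −0.46 to 0.71), −0.15 for Ifi203 (−2.11 to 1.82) and −0.19 for Zfp804a (−1.69 to 1.31). It was −0.04 for Mogat2 (−1.13 to 1.05) and −0.09 for Pla2g7 (−0.88 to 0.70). The fit takes one residual per gene from all arrays, the late ones included, so the intervals of Ifi203 and Zfp804a are wide and a severalfold difference was not detectable.

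Mme and Pla2g7 lay outside the control range early with both 1 µM agents, by sizes that did not pass the test. Against EtOH, 0 of the 5 genes were called with early ATRA (0.858% of all genes called, 0.823% higher and 0.0351% lower) or early BMS753 (0.306% of all genes called, 0.301% higher and 0.00502% lower), and 0 of the 5 had an unadjusted p under 0.05 in limma. Mme differed by 0.50 ± 0.24 (SE) with ATRA and 0.38 ± 0.24 with BMS753 (limma adjusted p = 0.638 and 0.638). Pla2g7 differed by −0.43 ± 0.32 and −0.34 ± 0.32 (limma adjusted p = 0.915 and 0.802). All 4 early arrays of these agents lay above the EtOH arrays for Mme, as for 7.79% of all genes, and below them for Pla2g7, as for 2.36%. With error taken from the EtOH arrays only, limma called Mme (adjusted p = 8.27e-05 with ATRA and 0.00222 with BMS753) and Pla2g7 (adjusted p = 9.76e-06 and 1.87e-04). Over all alternatives the limma adjusted p with ATRA ran from 8.27e-05 to 1.00 for Mme and from 8.15e-06 to 1.00 for Pla2g7, and with BMS753 from 0.00222 to 1.00 and from 1.41e-04 to 1.00.

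At 0.1 µM, late BMS641 called 0 of the 5 genes (0% of all genes called, 625 at an unadjusted p under 0.05) and late BMS961 called 0 (0.00502% called, 769 at an unadjusted p under 0.05), with 0 of the 5 at an unadjusted p under 0.05 in limma. Mme read 8.50, 8.42, 8.12, 7.93 and 7.59 from 2 to 72 h of BMS961 and 8.36, 8.41, 8.37, 8.32 and 8.03 with BMS641. Its 3 late BMS961 arrays lay below the EtOH range, as for 5.98% of all genes, on the side opposite to ATRA. The difference was −0.44 ± 0.21 (95% interval −0.89 to 0.01, limma adjusted p = 1.00), the 15th lowest of all genes. It was called with error from the EtOH arrays only (limma adjusted p = 4.36e-04, range over alternatives 4.36e-04 to 1.00). Pla2g7 lay below the EtOH range in 5 of 5 arrays of BMS641 and 4 of 5 of BMS961, early ones included. Mogat2 lay below it in 3 of 5 arrays and above it in 1 of 5 with each agent. Mme lay above it in the early BMS961 arrays and at 6 h of BMS641. The largest of these differences from the EtOH mean were −0.21 for Pla2g7, −0.20 for Mogat2 and 0.18 for Mme. A range of 4 arrays is narrow, and the share of all genes with such counts was not taken, so the counts only describe these arrays. Early arrays of Mme and Pla2g7 outside the control range were thus not limited to the 1 µM agents. In the 10 arrays of these agents, Ifi203 read between 4.08 and 4.26, Zfp804a between 4.88 and 5.11, Mogat2 between 9.61 and 9.98 and Pla2g7 between 11.09 and 11.28.

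BMS961 and BMS641 share a dose and were compared directly. Late, 0 of the 5 genes were called by limma (0% of all genes called, 358 genes and 0 of the 5 at an unadjusted p under 0.05). BMS961 minus BMS641 was −0.36 for Mme (95% interval −0.84 to 0.12), 0.03 for Ifi203 (−1.58 to 1.63) and −0.03 for Zfp804a (−1.26 to 1.2). It was 0.05 for Mogat2 (−0.85 to 0.94) and −0.02 for Pla2g7 (−0.67 to 0.62). Mme was called with error from the EtOH arrays only (limma adjusted p = 0.0307, range over alternatives 0.0127 to 1.00). The 1 µM and 0.1 µM agents differ in dose as well as in agent and were not compared with each other.

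**Figure D2:**
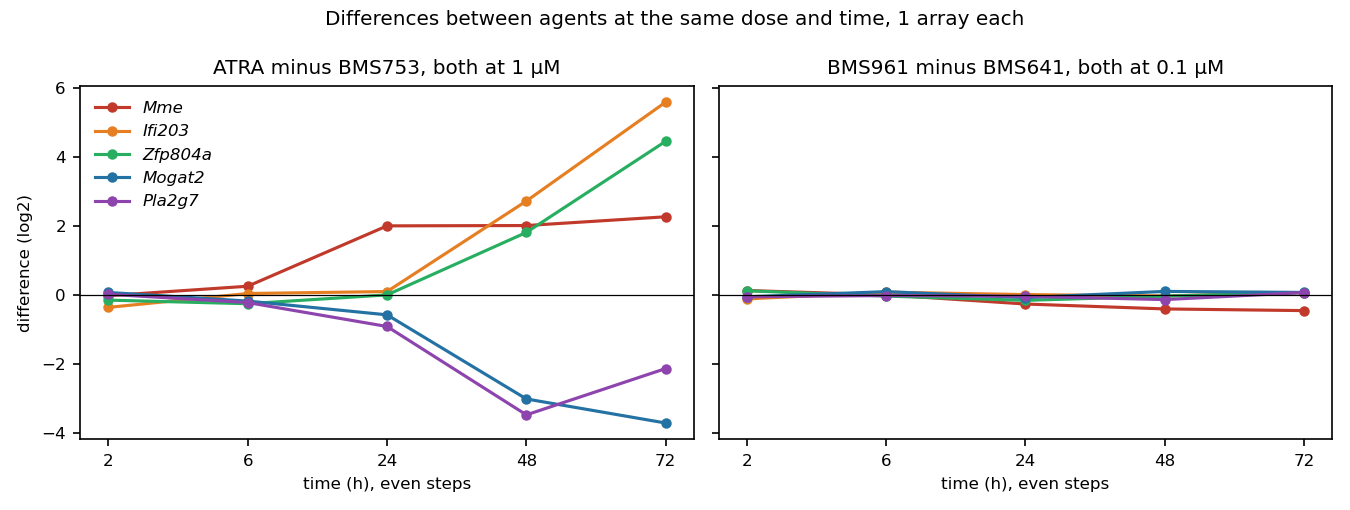
Difference in log2 intensity (vertical axis) at each time in h (even steps) for ATRA minus BMS753, both at 1 µM, and BMS961 minus BMS641, both at 0.1 µM, a line a gene and 1 array of each agent behind each point. The 1 µM pair parts at 24 h for Mme (2.01) and at 48 h for Ifi203 (2.73) and Zfp804a (1.82), and the largest 0.1 µM difference is that of Mme at 72 h (−0.44).

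The embryonal carcinoma markers fell later with BMS753 than with ATRA, so the 5 genes were also read at unequal times. The mean of the 10 markers, as log2 minus the EtOH mean, was −0.63, −2.89 and −3.76 with ATRA at 24, 48 and 72 h and 0.06, −0.82 and −2.33 with BMS753. By these means ATRA at 24 h lay nearest to BMS753 at 48 h, and ATRA at 48 h nearest to BMS753 at 72 h. In the first pair, ATRA minus BMS753 was −0.05 for Ifi203, 0.06 for Zfp804a, 2.99 for Mme, −1.27 for Mogat2 and −1.52 for Pla2g7. Ifi203 and Zfp804a were thus nearly level there, and the other 3 genes were apart. In the second pair it was 2.34, 1.84, 1.06, −2.56 and −2.9 in the same order, so that all 5 genes were apart, while Pou5f1 read 8.63 and 8.88 and Nanog, another pluripotency gene, 5.46 and 7.23. Between ATRA at 24 h and BMS753 at 72 h it was −0.45, 0.07, 2.03, −0.83 and −0.96. The pairs of arrays were chosen after the values were seen, and the part of the later marker fall in the differences was not tested. The first and second pairs each hold a 48 h array. Mme was low at 48 h with both agents (9.34 with ATRA and 7.32 with BMS753). Mogat2 and Pla2g7 were at their highest with BMS753 at 48 h (10.61 and 11.46). The part of the 48 h arrays in the differences was not tested either.

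Among the surface peptidases listed beside neprilysin, 13 of 15 were measured. With late ATRA 3 rose and 2 fell, with late BMS753 1 rose and 0 fell, and 0 were called between the agents late by limma (10.4% of all genes called, 4.44% higher and 5.93% lower; 4 of the 13 at an unadjusted p under 0.05). In a fit of the arrays of ATRA and BMS753 late alone, limma called 0 of all genes between the agents. Every list gene called between them by the fit of all arrays was thus lost there. With 3 arrays per agent and shared time terms, that fit leaves few residual degrees of freedom. It thus cannot tell a missing difference from a lack of power. The median late difference was 0.01 over the 13 and 0.02 over all genes. Against EtOH, late ATRA and late BMS753 called 36.9% and 13.5% of all genes. Cpm, carboxypeptidase M, read 5.48 ± 0.14 in EtOH (SD, n = 4), 6.44, 10.17 and 8.22 with ATRA at 24, 48 and 72 h, and 5.39, 6.45 and 8.53 with BMS753. It rose by 2.80 ± 0.57 (SE) with ATRA (limma adjusted p = 0.00135), and was highest in the 48 h ATRA array, where Mme was low. Ece1, an endothelin-converting enzyme related to neprilysin, rose by 0.57 ± 0.12 with ATRA and 0.76 ± 0.12 with BMS753 (limma adjusted p = 0.00192 and 9.46e-04). Ece2 fell by 0.47 ± 0.16 and Ecel1 fell by 0.45 ± 0.10 with ATRA, and Phex rose by 0.34 ± 0.12.

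Anpep, aminopeptidase N, rose early with both agents. At 24 h it was back near the control level with ATRA and still above it with BMS753. It read 7.5 ± 0.10 in EtOH, 8.29, 8.92 and 7.37 at 2, 6 and 24 h of ATRA, and 8.03, 8.75 and 7.80 with BMS753. The early rise was 1.1 ± 0.14 with ATRA (limma adjusted p = 7.86e-04) and 0.88 ± 0.14 with BMS753 (limma adjusted p = 0.0125). Both calls needed the 6 h arrays, and that with BMS753 also the time term. The calls of Ece2 and Phex needed the 72 h arrays and EtOH replicates 1 and 3, that of Ece2 also replicate 4, and that of Phex was lost under a second quantile normalization.

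The other PYHIN genes changed little in their late means, but their mean was higher at 72 h of ATRA. As log2 minus the EtOH mean, it was 0.05, 0.05 and 0.20 with ATRA at 24, 48 and 72 h. The EtOH arrays gave −0.03 to 0.03 and the late BMS753 arrays −0.05 to 0.02. Of 9 measured besides Ifi203, limma called 0 between the agents late (2 at an unadjusted p under 0.05), with differences from 0.00 to 0.19 and a median of 0.14. Against EtOH, late ATRA called 0 (1 at an unadjusted p under 0.05), with changes from 0.01 to 0.20. Of all genes, 10.4% were called between the agents late and 36.9% with late ATRA. Ifi207 and Ifi202b, the nearest measured genes on either side of Ifi203, read 4.28 ± 0.03 and 3.76 ± 0.07 in EtOH and 4.50 and 4.31 with ATRA at 72 h. Aim2, the DNA sensor of the family, read 5.76 ± 0.05 in EtOH and 6.11 at 72 h. Whether probes of the Ifi203 set also match a relative was not tested.

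Of 28 measured interferon-response genes, 6 rose and 2 fell with late ATRA, 0 rose and 3 fell with late BMS753, and 3 were higher and 0 lower with ATRA than with BMS753. Of all genes, 36.9%, 13.5% and 10.4% were called in these comparisons. The median late difference of the list was 0.11. Usp18, which removes ISG15 from proteins, rose by 0.56 ± 0.10 with ATRA and was 0.52 ± 0.11 higher than with BMS753 (limma adjusted p = 0.0118). Ifitm2, of an antiviral membrane protein family, and Irf9, a subunit of the factor ISGF3, were higher with ATRA than with BMS753 by 0.32 ± 0.09 and 0.30 ± 0.08. Ifitm3 rose by 1.83 ± 0.41 with ATRA (limma adjusted p = 0.00259) and read 8.16 and 8.43 with ATRA and BMS753 at 72 h. Bst2, which tethers budding virus, fell by 1.23 ± 0.20 with ATRA and fell by 0.75 ± 0.20 with BMS753. The 3 calls between the agents needed the 48 h arrays, and that of Irf9 also the 72 h arrays. The fall of Bst2 with BMS753 was not called on dropping the 48 h arrays, the 72 h arrays, EtOH replicate 3 or the time term.

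PYHIN genes are known from blood cells, so blood markers were read beside Ifi203. Of 10, 0 rose and 1 fell with late ATRA, and 0 were higher and 1 lower than with BMS753 (36.9% and 10.4% of all genes called). Ptprc, which encodes CD45, read 5.04 ± 0.11 in EtOH and 5.12 with ATRA at 72 h, Adgre1 4.47 ± 0.03 and 4.52, and Csf1r 4.92 ± 0.02 and 4.90. The mean of the list, as log2 minus the EtOH mean, was 0.05, −0.08 and −0.07 with ATRA at 24, 48 and 72 h.

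Zfp804b and Gpatch8, the relatives of Zfp804a, were called in no late comparison of ATRA or BMS753 by limma (1 of 2 at an unadjusted p under 0.05 between the agents). Zfp804b read 4.48 ± 0.10 in EtOH and 4.62 with ATRA at 72 h. Of 14 neuron markers, 2 were higher and 0 lower with ATRA than with BMS753 late (4.44% and 5.93% of all genes). Their mean, as log2 minus the EtOH mean, was −0.11, 0.24 and 1.33 with ATRA at 24, 48 and 72 h and −0.08, −0.07 and −0.22 with BMS753. The mean of 9 fibroblast markers was 0.08, 0.56 and 1.33 and 0.01, 0.08 and 0.67, with 0 called between the agents by limma (4 at an unadjusted p under 0.05). Both lists were highest in the ATRA array in which Ifi203 and Zfp804a were highest. The means of the primitive endoderm (1.07) and endothelial (0.21) markers were highest there too, and that of the neural progenitor markers (0.78) was not. The part of these lists in the levels of Ifi203 and Zfp804a was not tested.

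Dgat2, next to Mogat2 in the reference gene order, encodes a related acyltransferase that makes triacylglycerol from diacylglycerol, and it was lower with ATRA too. It read 9.09 ± 0.06 in EtOH (SD, n = 4), 8.59, 7.83 and 7.68 with ATRA at 24, 48 and 72 h, and 8.87, 8.71 and 8.50 with BMS753. All 6 arrays lay below the EtOH mean, and at each time the ATRA array was the lower. Dgat2 fell by 1.05 ± 0.13 (SE) with ATRA (limma adjusted p = 3.48e-05), differed by −0.39 ± 0.13 with BMS753 (limma adjusted p = 0.0582), and ATRA minus BMS753 was −0.66 ± 0.14 (limma adjusted p = 0.0112). The last call needed both the 48 h and the 72 h arrays. Map6, the measured neighbour on the other side, rose by 0.37 ± 0.11 with BMS753 (limma adjusted p = 0.041) and differed by 0.12 ± 0.11 with ATRA. The Map6 call was not made on dropping the 48 h arrays, the 72 h arrays any of the EtOH arrays or the time term.

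**Figure D3:**
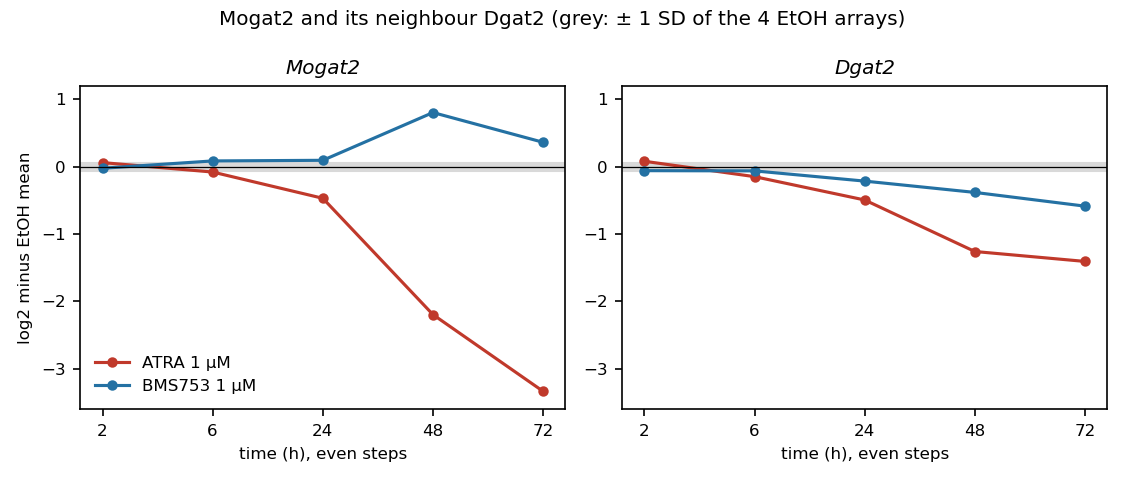
Log2 intensity minus the EtOH mean (vertical axis) of Mogat2 and of its neighbour Dgat2 against time in h (even steps) with ATRA and BMS753, 1 array a point, with the spread of the 4 EtOH arrays. Both genes fall with ATRA, while with BMS753 at 48 and 72 h Mogat2 is above and Dgat2 below the EtOH mean.

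Of 33 measured genes of triacylglycerol metabolism, 6 rose and 13 fell with late ATRA, 3 rose and 7 fell with late BMS753, and 1 was higher and 4 were lower with ATRA than with BMS753. The same comparisons called 36.9%, 13.5% and 10.4% of all genes. The median late difference of the list was −0.12. Gpat3, which adds the first acyl chain to glycerol phosphate, fell by 1.37 ± 0.14 with ATRA and fell by 1.2 ± 0.14 with BMS753 (limma adjusted p = 6.53e-06 and 9.21e-05). Acsl5, an acyl-CoA synthetase, fell by 1.14 ± 0.10 and fell by 0.73 ± 0.10, and ATRA minus BMS753 was −0.41 ± 0.10 (limma adjusted p = 0.0244). Agpat5, an acyltransferase, and Plpp2, a lipid phosphatase, also differed, by −0.41 ± 0.12 and −0.28 ± 0.07, and Agpat3 was 0.48 ± 0.08 higher with ATRA. Plpp3, another lipid phosphatase, rose by 2.48 ± 0.44 with ATRA and 1.66 ± 0.44 with BMS753, and Plin2, a coat protein of lipid droplets, by 0.77 ± 0.13 and 0.68 ± 0.13. Each of the 5 calls between the agents needed the 48 h arrays, those of Agpat5 and Plpp2 also the 72 h arrays, and that of Agpat5 also EtOH replicates 1, 3 and 4. Those of Acsl5, Agpat5 and Plpp2 were lost without the time term, and those of Agpat5 and Plpp2 under a second quantile normalization. The Plpp3 call with BMS753 needed the 72 h arrays and EtOH replicate 4.

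Of 21 measured genes of PAF metabolism and phospholipase A2, 2 rose and 9 fell with late ATRA, 2 rose and 5 fell with late BMS753, and 0 were higher and 1 was lower with ATRA than with BMS753. The same comparisons called 36.9%, 13.5% and 10.4% of all genes. The median late difference of the list was 0.01. Pafah2, the closest relative of Pla2g7 and also a PAF hydrolase, fell by 0.65 ± 0.10 with ATRA and fell by 0.61 ± 0.10 with BMS753 (limma adjusted p = 2.19e-04 and 0.00127). Lpcat1, which can make PAF, rose by 0.45 ± 0.09 and 0.44 ± 0.09. Pla2g12a, a secreted phospholipase A2, fell by 1.11 ± 0.16 with ATRA. Gnpat, which starts ether lipid synthesis, was the gene called between the agents (−0.25 ± 0.06, limma adjusted p = 0.017), and that call needed the 48 h arrays.

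**Figure D4:**
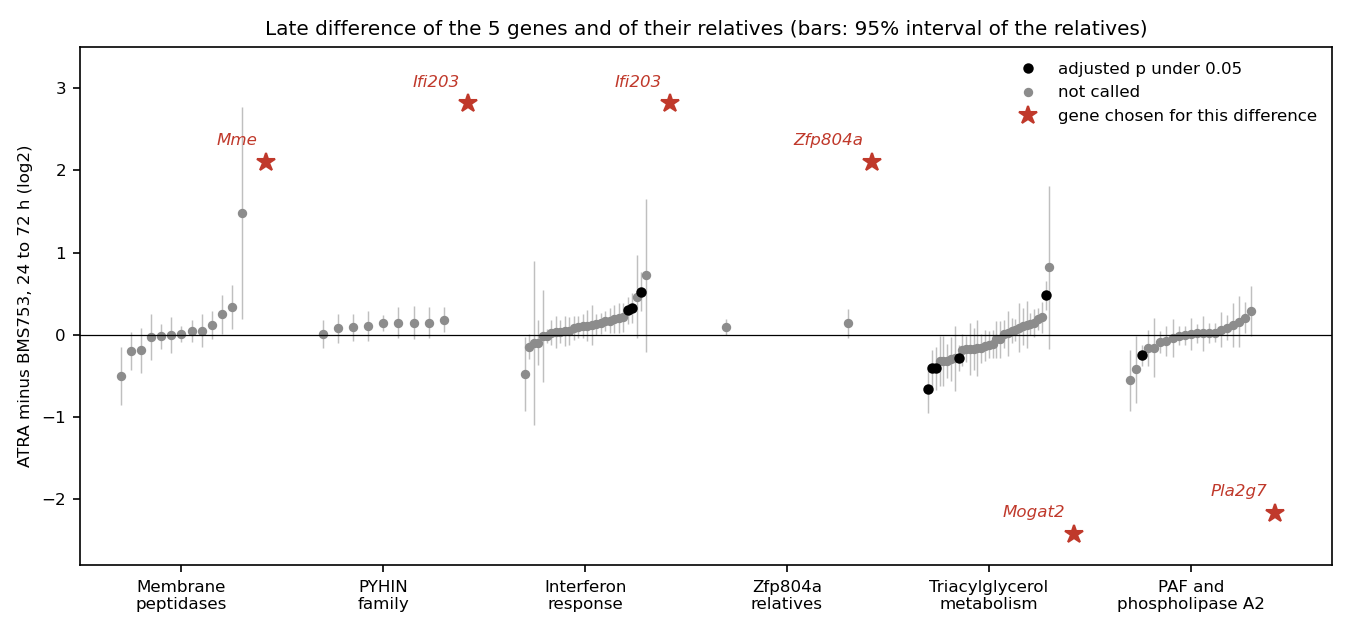
Late ATRA minus BMS753 in log2 units (vertical axis) for the measured genes of 6 lists, each point a gene with its 95% interval, black where the limma adjusted p was under 0.05, and the chosen gene as a star with no interval. The 9 PYHIN relatives of Ifi203 lie between 0.00 and 0.19, and Dgat2 (−0.66) is the lowest gene of the triacylglycerol list apart from Mogat2.

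None of the other neighbours of the members was called between the agents. Plch1, beside Mme, rose by 0.87 ± 0.22 with late ATRA and 0.72 ± 0.22 with late BMS753 (limma adjusted p = 0.00607 and 0.0419), and ATRA minus BMS753 was 0.15 ± 0.23. The first of these calls needed the 48 h arrays, and the second the 48 h arrays, the 72 h arrays, each EtOH array and the time term. ATRA minus BMS753 was −0.01 ± 0.05 for Gpr149 on the other side of Mme. It was −0.05 ± 0.12 and 0.02 ± 0.05 for Dusp19 and Fsip2 around Zfp804a. For Mep1a and Tdrd6 around Pla2g7 it was −0.02 ± 0.07 and −0.09 ± 0.09. These are only the nearest measured genes. Plch1 and Gpr149 lay 312.5 and 689.8 kb from Mme, and Dusp19 and Fsip2 1418.5 and 683.8 kb from Zfp804a. Mep1a and Tdrd6 lay 63.9 and 3.1 kb from Pla2g7. Late ATRA minus EtOH was −0.36 ± 0.11 for Dusp19 (limma adjusted p = 0.0211). That call needed the 48 and 72 h arrays and EtOH replicates 3 and 4.

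The genes most like each member were found by Pearson's r over all 24 arrays, among 3359 genes with a range of at least 1 log2 unit. Arrays share agents, times and controls, so r only describes likeness. Ifi203 and Zfp804a were each other's nearest gene (0.99). Next to Ifi203 came Adh1, an alcohol dehydrogenase (0.99), and Cav1, caveolin (0.99), and next to Zfp804a came Adh1 (0.99) and Ecm1, an extracellular matrix protein (0.99). Adh1 read 5.37, 7.07 and 10.10 with ATRA at 24, 48 and 72 h and 5.7 with BMS753 at 72 h. Without the 2 arrays farthest from the median, r between Ifi203 and Zfp804a was 0.05, and for Ifi203 it was 0.58 with Adh1 and 0.17 with Cav1. For Zfp804a it was 0.17 with Adh1 and 0.42 with Ecm1. These likenesses rest largely on those arrays.

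Mme was followed by Chn2, a GTPase-activating protein (0.87), Nxph4, a neurexophilin (0.87), and the transcription factor gene Foxp1 (0.85), which stood at 0.56, 0.49 and 0.70 without the 2 farthest arrays. Chn2 read 9.18, 8.08 and 9.39 with ATRA at 24, 48 and 72 h, with a low 48 h array as in Mme. Mogat2 was followed by Fancd2, a DNA repair gene (0.96), Tarbp1 (0.96) and the endocytic receptor gene Lrp2 (0.96), at 0.34, 0.78 and 0.63 without them. Lrp2, like Mogat2, was high with BMS753 at 48 h (10.76, against 10.13 ± 0.11 in EtOH). Pla2g7 was followed by Wwc1 (0.95) and by Rrp12 and Utp18, genes of ribosome assembly (0.95 and 0.94), at 0.77, 0.78 and 0.66.

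Among the 5 genes, Mme and Pla2g7 ran opposite to each other over 24 arrays (r = −0.77) and over the 22 without ATRA at 48 and 72 h (−0.86). Mogat2 and Pla2g7 went together over 24 arrays (0.89) and less so over 22 (0.49). Mme with Ifi203 gave 0.66 over 24 arrays and −0.04 over 22. The genes were chosen by large late differences, and the 22 arrays still hold arrays used by that choice. These are the late BMS753 arrays and ATRA at 24 h, where Mme read 10.31 and Pla2g7 9.94. The r values thus partly reflect the choice and are no support for a link between the genes.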

How the data were processed

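The authors deposited log2 intensities per probe set, made with Affymetrix Expression Console 1.1 per the submitters' processing notes. The sources used here do not name the background, summarization or normalization method, and the log2 scale was inferred from the values (2.859 to 14.303). Of 35556 probe sets, 21789 had 1 gene symbol, 1621 several and 12146 none, and the brightest probe set per symbol gave 19938 genes. The 4 EtOH arrays differed pairwise by an SD of 0.0941 to 0.143.

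A single limma 3.58.1 fit in R 4.3.3 (lmFit, eBayes with trend) held all 24 arrays, with means for EtOH (n = 4) and each agent early (n = 2) and late (n = 3), plus time terms shared by the agents, which leaves 12 residual degrees of freedom. Arrays at different times of a phase thus serve as repeats. Calls used Benjamini-Hochberg adjusted p under 0.05 over all genes, two-sided. The fit was also run on simulated arrays with independent noise of the EtOH spread and constant shifts in late ATRA. These held no courses over time, so they could not test the fit where the agents' courses part.

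Members, lists and tests were chosen with earlier results of these data known. Genes named are the members, up to 4 called genes each way per list and comparison, close relatives, the 3 best correlates and the nearest measured neighbours in RefSeq (GRCm38.p6). Marker genes, the ranked non-members and the 48 h genes were named after their values were seen. Alternatives dropped dim genes, repeated quantile normalization, averaged probe sets, removed the time term, took error from EtOH only, fitted only the groups compared, or left out arrays.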

Additional observations from a re-analysis of the deposited data

How the results depend on the processing

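Counts of called genes depended most on where the error came from. With error from the EtOH arrays only, late ATRA minus BMS753 called 7024 genes in place of 2067, late BMS753 minus EtOH 6247 in place of 2683, early ATRA minus EtOH 1402 in place of 171, early BMS753 minus EtOH 908 in place of 61, early ATRA minus BMS753 190 in place of 0, late BMS641 125 in place of 0, late BMS961 456 in place of 1, and BMS961 minus BMS641 20 in place of 0. With only the groups compared, the counts in the same order were 0, 6255, 1391, 901, 237, 115, 464 and 69. Against EtOH, the time terms fit an agent's arrays exactly there, so the error again came from the EtOH arrays alone. Those counts are thus no separate check. Between agents, that fit leaves few residual degrees of freedom. Without the time term, early ATRA minus EtOH called 112, early BMS753 minus EtOH 26, early ATRA minus BMS753 1 and late BMS961 0, and a second quantile normalization left 29 for early BMS753. Leaving out arrays gave 317 to 4735 for late ATRA minus BMS753, lowest without the 48 h arrays, 5784 to 8960 for late ATRA, 1051 to 5364 for late BMS753, 18 to 146 for early ATRA, 2 to 31 for early BMS753, 1 to 7 for late BMS961 and 0 for the other comparisons. Filtering the dimmest genes left 3 of the 5 genes, without Ifi203 and Zfp804a.

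Signs turned only among small differences that no setting with that turn called. Mogat2 with late BMS641 was 0.0033 after a second quantile normalization. On leaving out arrays, values that changed sign ran for early ATRA minus BMS753 −0.35 to 0.054 (Ifi203), −0.0088 to 0.26 (Mme), −0.17 to 0.084 (Mogat2), −0.21 to 0.031 (Pla2g7); for early ATRA minus EtOH −0.12 to 0.017 (Ifi203), −0.078 to 0.062 (Mogat2); for early BMS753 minus EtOH −0.037 to 0.23 (Ifi203), −0.022 to 0.087 (Mogat2); for late BMS753 minus EtOH −0.11 to 0.17 (Ifi203); for late BMS641 minus EtOH −0.056 to 0.027 (Mogat2), −0.14 to 0.026 (Mme); for late BMS961 minus EtOH −0.079 to 0.016 (Ifi203), −0.031 to 0.13 (Mogat2); for late BMS961 minus BMS641 −0.084 to 0.030 (Zfp804a), −0.075 to 0.028 (Pla2g7). The cause was not tested. No paired analysis was possible because the groups share no replicate numbers. The agents do share times, which the fit holds as time terms, and the counts without them are those given above.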

Other observations

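Mme was low at 48 h in both 1 µM series. It read 9.34 at 48 h of ATRA, against 10.31 at 24 h and 10.56 at 72 h, and 7.32 at 48 h of BMS753, against 8.29 and 8.28. With BMS641 and BMS961 the 48 h level lay between those at 24 and 72 h. Of all genes, 6.95% were lower at 48 h than at 24 and 72 h with both ATRA and BMS753, and 4 were lower by at least 0.5 log2 units each time, a threshold chosen after the values were seen. These were Mme, with a smallest gap of 0.96, Slc7a1, a transporter of cationic amino acids (0.79), Prrx1, a homeobox gene (0.66), and Slc6a9, a glycine transporter (0.56). What sets the 48 h arrays apart was not tested.

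Of 7 measured genes of the retinoid response, 7 rose with late ATRA and 6 with late BMS753, and 0 fell with either (17.9% and 6.52% of all genes called higher). Rarb, a direct target of RARs, rose by 4.69 ± 0.13 and 4.19 ± 0.13 (SE), and by 1.55 ± 0.13 with late BMS961 (limma adjusted p = 1.10e-04), a comparison in which 0 of the 5 genes were called. The BMS961 call was lost without the time term. Late ATRA minus BMS753 was 2.50 ± 0.30 for Cyp26b1, 1.22 ± 0.16 for Dhrs3 and 0.50 ± 0.14 for Rarb. These were called (limma adjusted p = 5.77e-04, 0.0011 and 0.0376), as for 4.44% of all genes, and the rest of the list was not. The Rarb call needed the 24, 48 and 72 h arrays, EtOH replicate 4 and the time term. As log2 minus the EtOH mean, the list averaged 3.45, 3.77 and 2.95 with ATRA at 24, 48 and 72 h. With BMS753 it averaged 1.85, 2.62 and 2.74.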
